A study of Mus musculus with 7 samples.

Results

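The voltage-gated potassium channel genes are those whose symbol names a pore-forming subunit of the Kcna, Kcnb, Kcnc, Kcnd, Kcnf, Kcng, Kcnh, Kcnq, Kcns or Kcnv subfamily. They were taken by symbol from the count table and numbered 40 of 35976 gene symbols. The family was chosen with earlier results of these data known. The data are RNA-seq gene counts from 7 libraries of the amygdala of male C57BL/6J mice, made from cells purified with a neuron isolation kit. The 4 control libraries (sgRosa) come from mice given an adeno-associated virus with a guide against the Rosa locus, and the 3 others (sgNr2f2) from mice given a guide against Nr2f2, which encodes the nuclear receptor COUP-TFII. In both groups Cas9 was driven by the hSyn promoter, a neuronal promoter, and the virus was left to express for over 2 weeks. Both groups were then restrained in tubes over 7 days, conditioned to fear on 1 day and taken through extinction on 3 days, so no group is unstressed. Ages are not given, nor whether a library is 1 animal or a pool, and p-values therefore measure the spread between these libraries, which may be technical.

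Voltage-gated potassium channels are tetramers that open when the membrane depolarizes and let potassium out, which ends action potentials and sets how readily and how fast a neuron fires. Subunits of the Kcna (Shaker), Kcnb (Shab), Kcnc (Shaw) and Kcnd (Shal) subfamilies each form channels with members of their own subfamily, whereas Kcnf, Kcng, Kcns and Kcnv subunits are silent alone and modify Kcnb channels. Subunits of the Kcnq subfamily, Kcnq3 among them, carry the M-current, which muscarinic receptors inhibit, and the Kcnh genes encode the EAG, ERG and ELK channels. In the amygdala such channels shape the firing of principal neurons and of fast-spiking interneurons, and several Shaker genes are also transcribed in cells of the oligodendrocyte lineage.

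The libraries held 6266897 to 20928677 counts, of which 4395 to 7372 fell on the 40 channel genes. Levels are CPM, counts divided by the TMM-scaled library total and brought to a common total, and values by library are listed in the order of the replicate numbers, sgRosa first. Nr2f2 itself had 422, 305, 166 and 96 counts in the control libraries against 196, 214 and 191 with the guide, and its log2 fold change of -0.36 (SE 0.37, edgeR adjusted p = 0.905) did not pass. A count does not show an edit that leaves the transcript in place. Although the cells are labelled as neurons, the 19 oligodendrocyte markers, all with counts in every library, had sums between 23240 and 348435 CPM in sgRosa and between 166610 and 410602 CPM in sgNr2f2. The 20 pan-neuron markers, also all counted in every library, had sums of 1030 to 6482 and of 1032 to 1463 CPM. sgRosa replicate 4 stood apart: it had the lowest total, 4.37 times the pan-neuron sum of the next library, the lowest oligodendrocyte sum, and 31599 CPM of erythroid transcripts against 1052 to 3068 in the other libraries. Fold changes that rest on its high values are also given without it. In bulk libraries, fewer cells of a type and less RNA per cell cannot be told apart.

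Of the 40 genes, 39 had a count in some library and 25 had a count in each of the 7. Kcnv2, a modifier subunit best known from the retina, had none. The low-count filter of edgeR kept 30 for testing. The 10 left out, among them Kcna7, Kcna10, Kcng1, Kcng3, Kcnh3, Kcnh4, Kcnh5, Kcnh8 and Kcnv2, did not pass 3.75 CPM or 80 counts in any library.

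**Figure D1:**
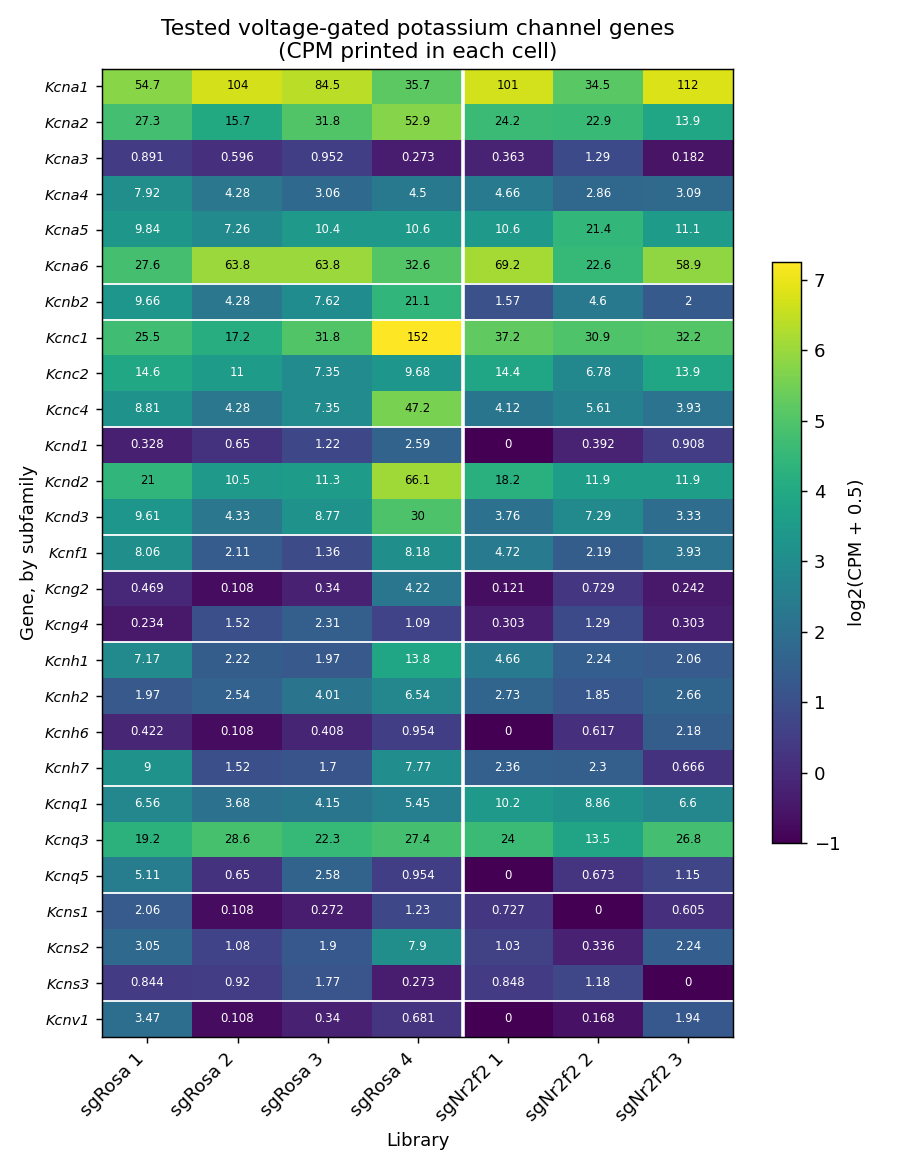
Levels of 27 tested genes in each library: rows are genes ordered by subfamily, columns are the 7 libraries, each cell holds the CPM and its colour is log2(CPM + 0.5). Kcna1 and Kcna6 lead in most libraries, while Kcnc1 reaches 151.5 CPM in sgRosa replicate 4.

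Compared per length, as CPM per kilobase of merged exons, Kcna1 led the family with a mean of 15.7 over the 7 libraries. Kcna6 followed at 8.14, and Kcna1 lay above Kcna6 in each of the 7 libraries. Kcnc1 (4.93), Kcnd2 (4.18), Kcna5 (4.05), Kcnc4 (3.17) and Kcna2 (2.26) were among the next, and their order is not firm. The SD of Kcnc1 over the sgRosa libraries was 6.73 and that of Kcnd2 5.11 on this scale, larger than any step between these neighbours. In sgNr2f2 alone Kcna5 (5.02 ± 2.14) lay above Kcnc1 (3.54 ± 0.355) and Kcnd2 (2.72 ± 0.702; SD, n = 3).

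The genes fell into differing patterns across libraries, and the promoters of 2 genes from each side are shown to set them side by side. Kcnc1 and Kcnc4 were highest in sgRosa replicate 4 by 4.07 and 5.35 times the next library. Kcna6 and Kcna5 were highest in sgNr2f2 libraries. The sequences below are RefSeq windows (GRCm38.p6) from 250 bases before to 50 after the annotated start, on the gene's strand, with CG dinucleotides in capitals. They lie at chr7:46396218-46396517 (plus strand, Kcnc1), chr3:107458849-107459148 (minus, Kcnc4), chr6:126740625-126740924 (minus, Kcna6) and chr6:126535506-126535805 (minus, Kcna5).
Kcnc1: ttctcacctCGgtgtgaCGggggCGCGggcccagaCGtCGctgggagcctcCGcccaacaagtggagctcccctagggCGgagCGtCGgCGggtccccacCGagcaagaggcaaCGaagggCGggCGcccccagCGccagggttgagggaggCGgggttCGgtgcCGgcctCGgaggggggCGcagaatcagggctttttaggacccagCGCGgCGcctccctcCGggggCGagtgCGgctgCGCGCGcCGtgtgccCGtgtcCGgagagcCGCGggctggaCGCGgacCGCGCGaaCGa
Kcnc4: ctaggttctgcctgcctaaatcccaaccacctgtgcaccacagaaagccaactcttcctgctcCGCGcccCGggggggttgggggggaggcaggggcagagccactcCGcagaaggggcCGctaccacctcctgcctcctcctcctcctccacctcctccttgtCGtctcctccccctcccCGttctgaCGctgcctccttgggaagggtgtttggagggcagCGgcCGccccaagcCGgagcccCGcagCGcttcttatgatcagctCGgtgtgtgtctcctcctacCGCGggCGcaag
Kcna6: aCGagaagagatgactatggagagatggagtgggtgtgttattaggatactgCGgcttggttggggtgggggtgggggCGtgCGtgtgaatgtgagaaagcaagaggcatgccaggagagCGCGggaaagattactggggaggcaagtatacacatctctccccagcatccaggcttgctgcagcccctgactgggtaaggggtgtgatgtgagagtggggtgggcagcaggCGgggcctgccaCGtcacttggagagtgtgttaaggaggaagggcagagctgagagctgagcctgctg
Kcna5: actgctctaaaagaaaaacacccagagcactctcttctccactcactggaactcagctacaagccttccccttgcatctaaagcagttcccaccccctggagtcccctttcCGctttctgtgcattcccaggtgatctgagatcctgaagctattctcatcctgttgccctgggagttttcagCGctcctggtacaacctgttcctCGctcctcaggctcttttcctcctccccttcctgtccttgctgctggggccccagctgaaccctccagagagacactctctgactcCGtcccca
Kcnc1 holds 41 CG dinucleotides and Kcnc4 17, against 8 in Kcna6 and 4 in Kcna5. The median over 32851 promoter windows of the genome was 7. Windows were found for 25 of the 40 genes, 30 windows in all, and 20 of these 30 lay above that median, as did 48.6% of all windows. Their CG counts ran from 0 (Kcna10) to 49 (Kcng3). The genes printed were picked by hand, and CG counts did not divide the patterns in all windows. Kcnd2, highest in sgRosa replicate 4, holds 26, but Kcnf1, highest in the same library, holds 3. Kcna3, highest in sgNr2f2 replicate 2, holds 37. CG content is a description of these windows, and nothing about regulation was tested.

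Nr2f2 protein binds direct repeats of the hexamer AGGTCA, so that hexamer was searched on both strands of the same windows. It was present in 16.3% of all windows and in 3 of the 30 channel windows, those of Kcna10, Kcnf1 and Kcnh1. A direct repeat, the hexamer followed by any 1 base and the hexamer again, was in 0.0396% of all windows and in 0 of the 30. The matches in Kcnf1 (chr12:17176998-17177027 and chr12:17176945-17176974, minus strand) and Kcnh1 (chr1:192190542-192190571, plus strand) are shown because both genes are described below, with the hexamer or its reverse complement in capitals.
Kcnf1 first match: cttttcatcttgTGACCTgaagcaatttcc
Kcnf1 second match: agttgtggtacaAGGTCAcaccaccaccag
Kcnh1 match: agagtcttcttgTGACCTtttcgggtgtgt
A match to the letters is not evidence of a binding site. Between the groups, the log2 fold change was -0.44 for Kcnf1 (SE 0.69) and -1.06 for Kcnh1 (SE 0.74), neither past the test.

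The Shaker genes held the largest part of the family's counts in most libraries. Kcna1, a subunit of axonal channels beside the nodes of Ranvier, lay at 54.7, 104.3, 84.5 and 35.7 CPM in sgRosa and at 101.3, 34.5 and 111.7 CPM in sgNr2f2. The groups overlapped (log2 fold change 0.24, SE 0.54, 95% confidence interval -0.95 to 1.43). Kcna6, a delayed rectifier subunit, lay at 27.6, 63.8, 63.8 and 32.6 CPM and at 69.2, 22.6 and 58.9 CPM. Both genes were low in the same 3 libraries, sgRosa replicates 1 and 4 and sgNr2f2 replicate 2. These were also the 3 libraries with the lowest oligodendrocyte sums (98423, 23240 and 166610 CPM, against 318456 to 410602 in the other 4). Exons of Kcna6 share 2355 bases with Gm26673 on the opposite strand, and whether counting used strand is not given, so part of its count is uncertain.

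Kcna2, the usual partner of Kcna1 in axons, did not follow it. It lay at 27.3, 15.7, 31.8 and 52.9 CPM in sgRosa and 24.2, 22.9 and 13.9 CPM in sgNr2f2, highest in sgRosa replicate 4 (log2 fold change -0.65, SE 0.47, and -0.29 without that library). Kcna5, known for the ultra-rapid potassium current of the heart atrium and for vascular smooth muscle, was steadier in sgRosa, at 9.84, 7.26, 10.4 and 10.6 CPM. In sgNr2f2 it lay at 10.6, 21.4 and 11.1 CPM, and replicate 2 alone was far above the control range. The log2 fold change was 0.59 (SE 0.41, edgeR unadjusted p = 0.180), and 0.19 without sgNr2f2 replicate 2. The 10 endothelial markers, all counted in every library, summed to 7662 CPM in that library and to 7347 CPM in sgRosa replicate 1, against 3153 to 4922 CPM in the other 5. The 10 mural cell markers were at their lowest in it, 86.8 CPM, with 2 of them, Kcnj8 and Abcc9, at 0 in some library, and the part of either list in the Kcna5 value was not tested. The A-type subunit gene Kcna4 ran from 2.86 to 7.92 CPM and Kcna3, best known from T cells and microglia, from 0.182 to 1.29 CPM, with log2 fold changes of -0.48 (SE 0.50) and -0.17 (SE 0.90). Kcna7 and Kcna10, known from muscle and the inner ear, had 1 count each over all 7 libraries.

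The Shab genes encode the main delayed rectifier of neuronal cell bodies and dendrites. Kcnb2 had the smallest p of the family. It lay at 9.66, 4.28, 7.62 and 21.1 CPM in sgRosa and at 1.57, 4.597 and 1.998 CPM in sgNr2f2. Only sgNr2f2 replicate 2 reached into the control range, just above sgRosa replicate 2. The group means were 10.7 ± 7.31 (n = 4) and 2.72 ± 1.64 CPM (n = 3), a log2 fold change of -1.957 (SE 0.66, 95% confidence interval -3.41 to -0.50). It did not pass (edgeR unadjusted p = 0.0133, adjusted p = 0.868). DESeq2 gave -1.997 with an adjusted p of 0.255, and over all fits made the adjusted p ran from 0.211 to 0.9996. Without sgRosa replicate 4 it was -1.40 (SE 0.52, edgeR unadjusted p = 0.0240), and with the pan-neuron sum as a covariate -1.28 (SE 0.54, edgeR unadjusted p = 0.0346, adjusted p = 0.519).

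Shaw channels open at high voltages and close fast, which lets neurons such as parvalbumin interneurons fire at high rates. Kcnc1, the most abundant of them, lay at 25.5, 17.2, 31.8 and 151.5 CPM in sgRosa and at 37.2, 30.9 and 32.2 CPM in sgNr2f2. The sgRosa mean was 56.5 ± 63.6 CPM with replicate 4 and 24.8 CPM with the other 3 libraries alone, and the sgNr2f2 mean was 33.4 ± 3.36 CPM. The log2 fold change accordingly changed sign, from -0.75 (SE 0.71) to 0.43 (SE 0.27, edgeR unadjusted p = 0.152). Kcnc4, whose channels inactivate quickly, lay at 8.81, 4.28, 7.35 and 47.2 CPM in sgRosa and at 4.12, 5.61 and 3.93 CPM in sgNr2f2. It had the second smallest p of the family, with a log2 fold change of -1.88 (SE 0.80, edgeR unadjusted p = 0.0398, adjusted p = 0.868). Without sgRosa replicate 4 it was -0.58 (SE 0.39, edgeR unadjusted p = 0.166).

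Kcnc2, which marks fast-spiking cells together with Kcnc1, differed in pattern from Kcnc1 and Kcnc4. It lay at 14.6, 10.99, 7.35 and 9.68 CPM in sgRosa and at 14.4, 6.78 and 13.9 CPM in sgNr2f2, with no peak in sgRosa replicate 4 (log2 fold change 0.13, SE 0.44).

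Shal channels carry the A-type current that delays firing from dendrites and cell bodies. Kcnd2 lay at 21.0, 10.5, 11.3 and 66.1 CPM in sgRosa and 18.2, 11.9 and 11.9 CPM in sgNr2f2. The peak lay in replicate 4 of sgRosa, and the log2 fold change was -0.95 (SE 0.65) with that library and -0.031 (SE 0.34) without it. Kcnd3 lay at 9.61, 4.33, 8.77 and 29.98 CPM and at 3.76, 7.29 and 3.33 CPM. The log2 fold change of Kcnd3, -1.45 (SE 0.67, edgeR unadjusted p = 0.0554), was -0.66 (SE 0.45) without that library, and sgNr2f2 replicate 2 lay within the control range. Kcnd1 stayed at or under 2.59 CPM in every library. Kcnd3 shares 165 exon bases with the antisense gene Kcnd3os, which had at most 0.303 CPM.

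The silent modifier genes were low throughout. Kcnf1 was the highest, at 8.06, 2.11, 1.36 and 8.18 CPM in sgRosa and 4.72, 2.19 and 3.93 CPM in sgNr2f2, with a log2 fold change of -0.44 (SE 0.69), and -0.10 (SE 0.67) without sgRosa replicate 4. Kcns2 lay at 3.05, 1.08, 1.90 and 7.90 CPM and at 1.03, 0.336 and 2.24 CPM. The peak was in sgRosa replicate 4, and the log2 fold change was -1.51 (SE 0.86) with it and -0.75 without it. Kcng4 lay at 0.234, 1.52, 2.31 and 1.09 CPM and at 0.303, 1.29 and 0.303 CPM, with groups that overlapped and a log2 fold change of -1.01 (SE 0.95). Kcnv1, a modifier of the forebrain, had 74, 2, 5 and 5 counts in sgRosa and 0, 3 and 32 in sgNr2f2, so that 2 libraries, sgRosa replicate 1 and sgNr2f2 replicate 3, held nearly all of it. Its log2 fold change of -0.73 (SE 1.42) was -3.66 without sgNr2f2 replicate 3. The other members of these 4 subfamilies stayed at or under 4.22 CPM, a value reached by Kcng2 in sgRosa replicate 4. Kcng2 shares 272 exon bases with D330025C20Rik on the opposite strand.

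Among the Kcnh genes, Kcnh1, which encodes the channel EAG, lay at 7.17, 2.22, 1.97 and 13.8 CPM in sgRosa and 4.66, 2.24 and 2.06 CPM in sgNr2f2 (log2 fold change -1.06, and -0.35 without sgRosa replicate 4). Kcnh7, of the ERG type, lay at 9.001, 1.52, 1.70 and 7.77 CPM and at 2.36, 2.30 and 0.666 CPM. Its high values were in sgRosa replicates 1 and 4 (log2 fold change -1.48, SE 0.80, and -1.20, SE 0.80, without the latter). Kcnh7 shares 696 exon bases with Gca on the opposite strand, whose level was 1.09 CPM in sgRosa replicate 4 and 11.1 to 19.8 CPM in the others.

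Kcnh2, the ERG gene also known from cardiac repolarization, ran from 1.85 to 6.54 CPM. Kcnh3, an ELK gene of forebrain excitatory neurons, had 80 counts in sgRosa replicate 1, 31 in sgNr2f2 replicate 3 and 0 in the other 5 libraries. The 2 libraries with counts are those that held most of Kcnv1. A count of 0 was seen in sgRosa replicate 4 although the 10 excitatory neuron markers summed to 464.4 CPM there, against 296.7 CPM in sgRosa replicate 1 and 168.1 CPM in sgNr2f2 replicate 3. Of these markers 3 were at 0 in some library, Neurod6 and Neurod2 among them. Another ELK gene, Kcnh8, had 5, 7, 3 and 12 counts in sgRosa and 2, 2 and 0 in sgNr2f2. Its groups did not overlap in CPM, with sgNr2f2 lower, as in 3.9% of all tested genes. Kcnh8 itself was too low to be tested. Kcnh6, of the ERG type, had the highest edgeR log2 fold change of the family's tested genes, 1.04 (SE 1.23). It had 2.18 CPM in sgNr2f2 replicate 3 and 0 in sgNr2f2 replicate 1, and limma-voom put its log2 fold change at -0.040 (SE 1.45).

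Of the subunits of M-current channels, Kcnq3 was steady across libraries, at 19.2, 28.6, 22.3 and 27.4 CPM and at 24.0, 13.5 and 26.8 CPM (log2 fold change -0.19, SE 0.39). Kcnq5, another subunit of such channels, had 109 counts in sgRosa replicate 1 and at most 38 elsewhere, with 0 in sgNr2f2 replicate 1. Its log2 fold change of -1.94 (SE 1.15) was -1.20 without sgRosa replicate 1 and -2.76 without sgNr2f2 replicate 3. Kcnq5 shares 237 exon bases with Gm26580 on the opposite strand.

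Kcnq1, the subunit of the slow cardiac and epithelial potassium current, was the 1 tested gene of the family whose groups did not overlap. It lay at 6.56, 3.68, 4.15 and 5.45 CPM in sgRosa (4.96 ± 1.30, n = 4) and at 10.2, 8.86 and 6.60 CPM in sgNr2f2 (8.54 ± 1.81, n = 3). The separation was narrow, from 6.56 in sgRosa replicate 1 to 6.60 in sgNr2f2 replicate 3. The log2 fold change was 0.78 (SE 0.43, 95% confidence interval -0.17 to 1.73) and did not pass (edgeR unadjusted p = 0.0958, adjusted p = 0.868). It was 0.83 without sgRosa replicate 4 (edgeR unadjusted p = 0.0477) and 0.87 with the pan-neuron sum as a covariate. Of all 14412 tested genes, 4.41% had groups that did not overlap with sgNr2f2 higher, and 3.90% with sgNr2f2 lower, where the family's tested genes had 0. Kcnq1 shares 121 exon bases with the imprinted antisense transcript Kcnq1ot1, which lay at 34.8, 34.8, 31.6 and 86.3 CPM in sgRosa and 26.6, 38.6 and 19.0 CPM in sgNr2f2 and so did not follow it.

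The comparison of sgNr2f2 with sgRosa addresses the effect of a guide against Nr2f2 on these channel transcripts in animals that all went through stress. Of the 30 tested genes 0 passed edgeR's test at an adjusted p of 0.05, as did 0% of all 14412 tested genes (smallest adjusted p of the family 0.868). At an unadjusted p under 0.05 the family had 2 genes lower, Kcnb2 and Kcnc4, or 6.67%, against 2.82% of all tested genes, and 0 higher against 2.18%. DESeq2 and limma-voom also called 0 of the 30 after adjustment, with 3 and 1 genes lower and 0 higher at an unadjusted p under 0.05. On the lower side lay 24 of 30 (80.0%), against 56.2% of all tested genes. The median log2 fold change was -0.69, against -0.11 over all tested genes. Scaling by library size alone moved the median of all genes to -0.33 and that of the family to -0.92. The SEs of the 30 genes ran from 0.39 to 1.42.

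This lean toward lower values was smaller without sgRosa replicate 4. Of the 30 genes, 15 (50%) had their highest level in that library, against 32.7% of all tested genes. Without it 19 of 28 tested genes (67.9%) were on the lower side, against 52.5% of all genes tested then, and the median log2 fold change was -0.20 against -0.033. At an unadjusted p under 0.05 there was then 1 gene lower (Kcnb2), against 4.88% of all genes, and 1 higher (Kcnq1), against 6.41%. Kcna5 and Kcnq1 were the 2 tested genes that did not overlap without it, both higher in sgNr2f2, against 8.99% of all genes on that side and 9.01% on the other.

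**Figure D2:**
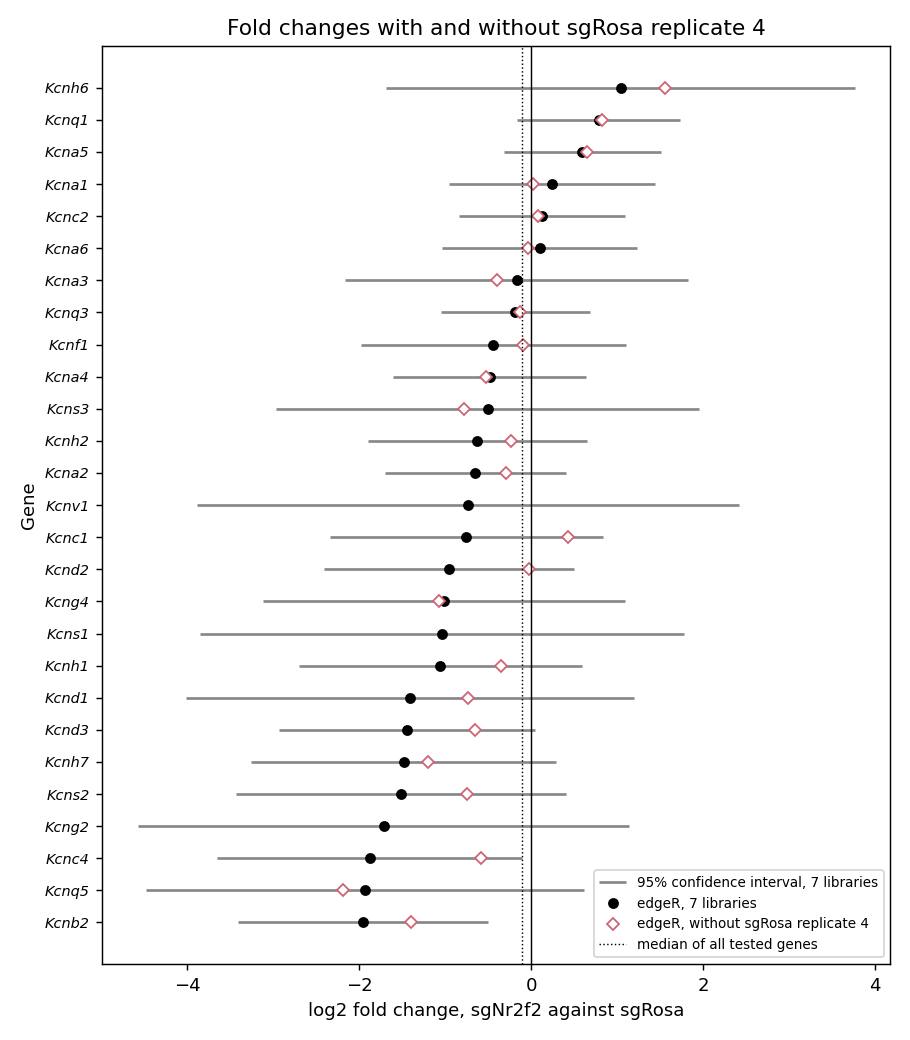
Log2 fold changes of sgNr2f2 against sgRosa for 27 of the tested genes: filled points are the fit of 7 libraries with 95% confidence intervals, open diamonds the fit without sgRosa replicate 4 (Kcng2, Kcns1 and Kcnv1 were not tested there), and the dotted line is the median of all tested genes. Most diamonds lie nearer 0, with Kcnc1 and Kcna6 crossing it, while Kcnb2 and Kcnq5 stay low and Kcnq1 and Kcna5 stay high.

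By subfamily, summed levels showed the same split, given here without a test. The 8 Kcna genes summed to 128.2, 196.0, 194.5 and 136.7 CPM in sgRosa and to 210.3, 105.6 and 199.0 CPM in sgNr2f2, with sgRosa replicate 4 among the lower libraries. Kcna genes made up 19.6% of the family's summed CPM in sgRosa replicate 4, against 37.1 to 61.9% in the others, and the Kcnc share 36.0% against 12.5 to 24.7%. Ratios of the sgNr2f2 mean to the sgRosa mean, given for 9 of the 10 subfamilies, were 1.05 for Kcna, 0.634 for Kcnc, 0.462 for Kcnd, 0.512 for Kcnh and 0.728 for Kcnq. Without sgRosa replicate 4 they were 0.993, 1.14, 0.851, 0.692 and 0.999. The silent subfamilies Kcnf, Kcng, Kcns and Kcnv had ratios of 0.734, 0.351, 0.434 and 0.610, and 0.940, 0.588, 0.580 and 0.537 without it.

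**Figure D3:**
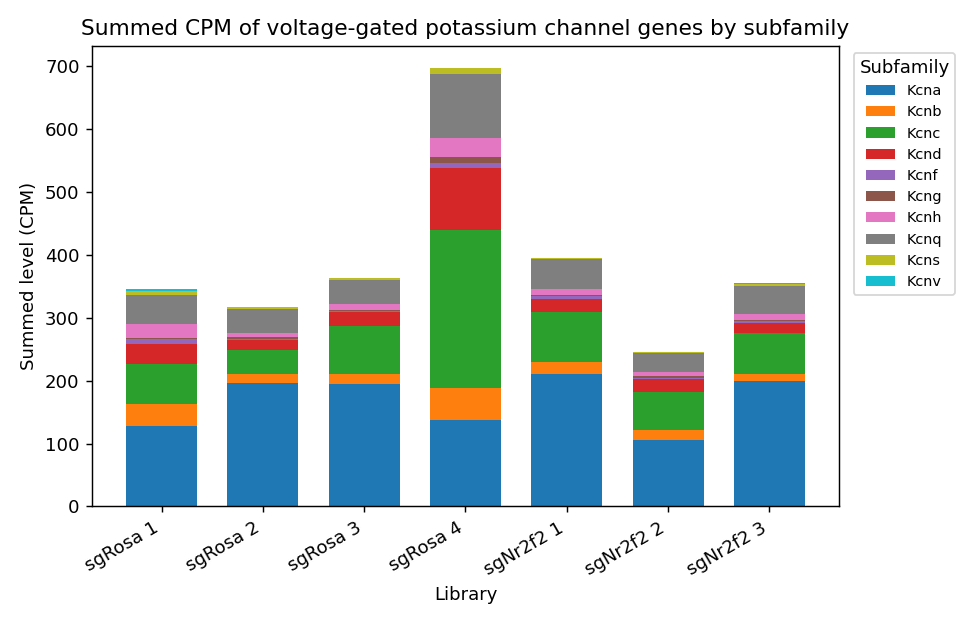
Summed CPM of the 40 genes by subfamily in each library, as stacked bars that start at 0. sgRosa replicate 4 reaches 697.7 CPM, with the excess mostly in Kcnc, Kcnd and Kcnq, and its Kcna part of 136.7 CPM lies within the range of the other libraries.

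The levels were then set beside the marker sums. Kcna1 and Kcna6 together, a pair chosen after their values were seen, summed to 68.3, 82.3 and 57.2 CPM in the 3 libraries with the lowest oligodendrocyte sums and to 148.3 to 170.6 CPM in the other 4. They were not in proportion to those sums. Per 1000 CPM of oligodendrocyte markers, Kcna1 spanned 7.41-fold from its lowest to its highest library, against 3.24-fold in CPM. Kcna6 spanned 10.3-fold, against 3.06-fold in CPM. The other 38 genes summed to 629.5 CPM in sgRosa replicate 4 and to 148.4 to 263.3 CPM elsewhere. These pools overlapped between the groups, and how much of each transcript came from neurons or from oligodendrocytes was not measured.

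**Figure D4:**
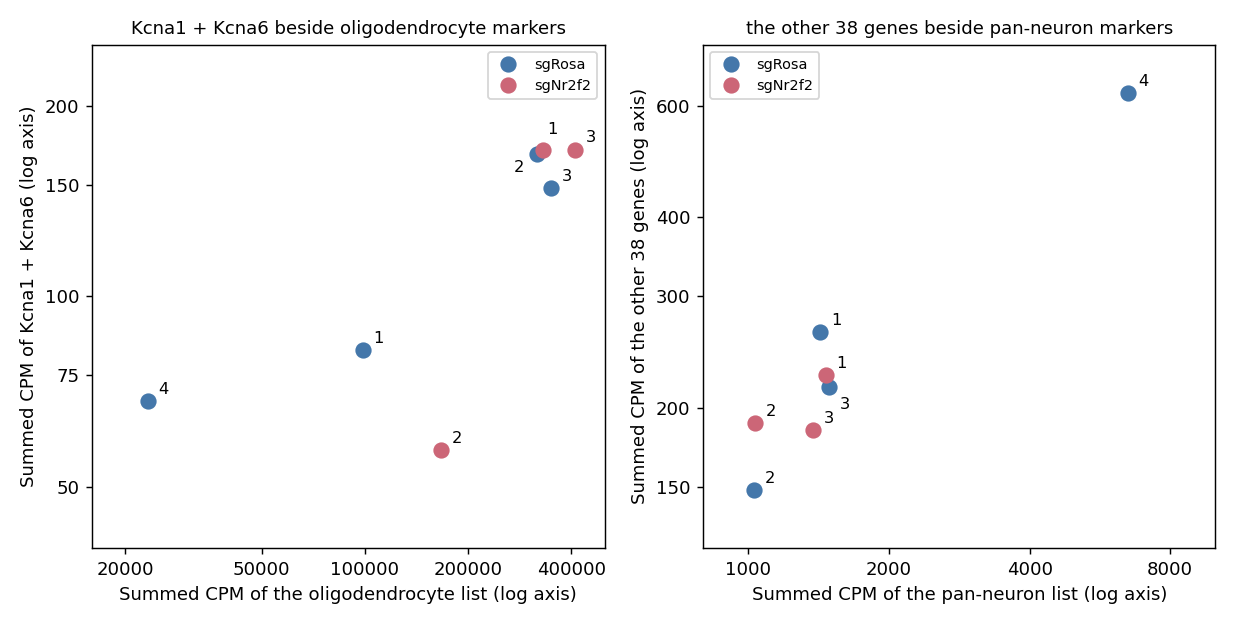
Left, summed CPM of Kcna1 and Kcna6 against that of the 19 oligodendrocyte markers; right, summed CPM of the other 38 genes against that of the 20 pan-neuron markers, all on log axes, with 1 point per library labelled by replicate. The 4 libraries with the highest oligodendrocyte sums, at 318456 to 410602 CPM, hold the highest Kcna1 and Kcna6 levels, and sgRosa replicate 4 stands alone at the right of the other panel.

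Per 1000 CPM of pan-neuron markers, the spread between libraries was smaller for some channel genes and larger for others. Of the 24 tested genes above 0 in all 7 libraries, 14 spanned a smaller fold range on this scale than in CPM and 10 a larger one. The pan-neuron sum of sgRosa replicate 4 was 4.37 times that of the next library, so this scale lowers its values most. Genes that peaked there therefore tend to narrow and others to widen. The share of all tested genes that narrowed is not given, so the split does not show which channels follow neurons. Kcnc1 spanned 8.83-fold from its lowest to its highest library in CPM and 1.80-fold per marker level, from 16.7 to 29.9. Kcnd2 went from 6.29-fold to 1.94-fold and Kcnc4 from 11.98-fold to 2.58-fold. The range grew from 3.24-fold to 18.4-fold for Kcna1, and from 2.12-fold to 6.57-fold for Kcnq3, an M-current subunit. It also grew for Kcnc2 (2.16 to 7.15), Kcna4 (2.77 to 8.02), Kcna5 (2.95 to 12.7), Kcna6 (3.06 to 12.3) and Kcnq1 (2.76 to 10.2). On this scale the ratio of group means was 1.23 for the Kcnc sum, 0.919 for Kcnd and 1.13 for Kcnq.

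On that scale Kcnb2 lay at 6.79, 4.15, 5.13 and 3.26 in sgRosa and 1.08, 4.46 and 1.45 in sgNr2f2. Kcnd3 lay at 4.21 to 6.75 in sgRosa and at 2.57, 7.06 and 2.42 in sgNr2f2. Kcnc4 lay at 4.15 to 7.27 and at 2.82, 5.43 and 2.86. In each of these 3 genes sgNr2f2 replicates 1 and 3 lay below every sgRosa library. Replicate 2 lay within the sgRosa range for Kcnb2 and Kcnc4 and above it for Kcnd3. These 3 genes had the smallest unadjusted edgeR p of the family in the same libraries, so low sgNr2f2 values are built into their choice. The share of all tested genes with this pattern is not given, so it is not a result about the family. On this scale, which was tried once the data had been seen, 3 tested channel genes did not overlap, all higher in sgNr2f2, against 5.82% of all tested genes on that side, and 0 were lower, against 0.569%. They were Kcna5, Kcnq1 at 4.8 to 8.59 against 0.841 to 4.61, and Kcnc1 at 23.43 to 29.9 against 16.7 to 23.38. Fitted with the pan-neuron sum as a covariate, the family's median log2 fold change was -0.20, with 19 of 30 genes on the lower side, and with the oligodendrocyte sum it was -0.23, with 18 of 30. The medians of all genes were -0.036 and -0.042, and 0 channel genes passed after adjustment in either.

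**Figure D5:**
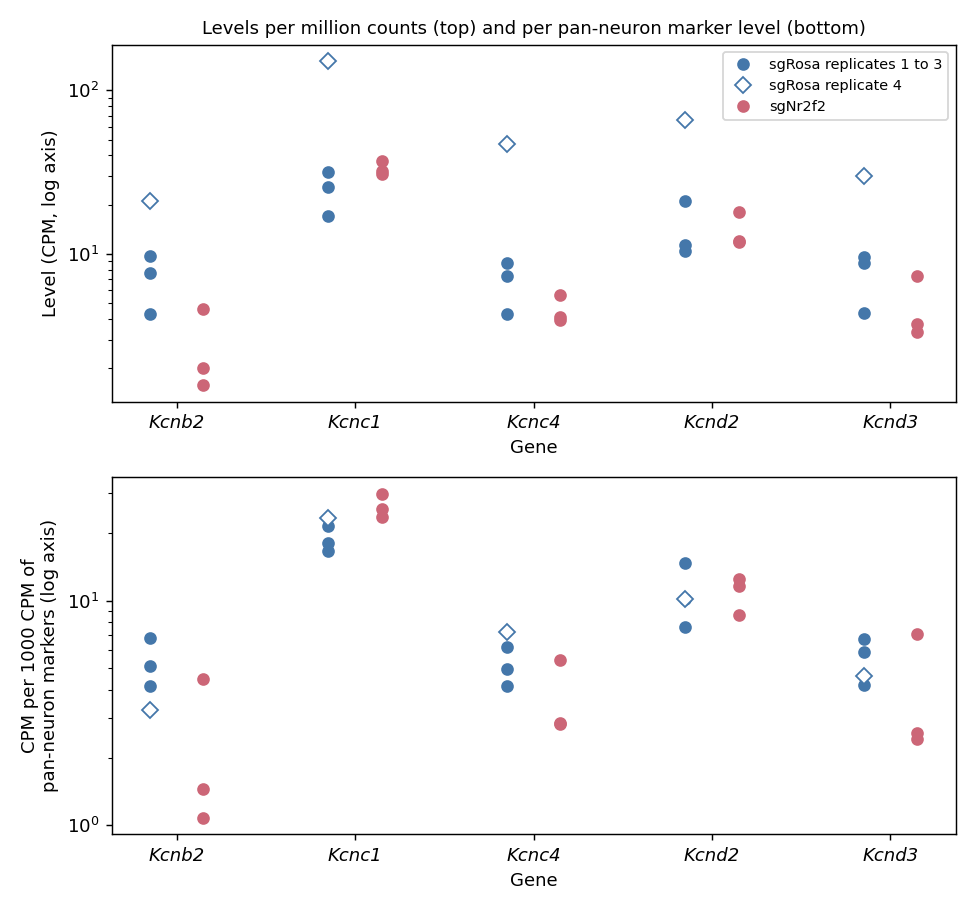
Levels of 5 channel genes in each library, in CPM (top) and per 1000 CPM of the 20 pan-neuron markers (bottom), on log axes. Each point is 1 library, and the open diamond is sgRosa replicate 4. In the upper panel the diamond is the highest point of each gene. In the lower panel all 5 genes span a smaller fold range, with Kcnb2 going from 13.4-fold to 6.30-fold. There 2 sgNr2f2 points of Kcnb2, Kcnc4 and Kcnd3, the 3 genes of smallest unadjusted edgeR p, lie below the sgRosa libraries. Genes whose range grew on this scale are not shown.

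Other potassium channel genes and partners, from lists written by hand, were read the same way. For comparison, 56.2% of all tested genes were on the lower side, and 2.82% were lower at an unadjusted p under 0.05. Of 18 listed auxiliary genes (beta subunits, KChIPs, DPP-like and scaffold proteins) 15 were tested, 9 of them on the lower side, with 2 lower at an unadjusted p under 0.05. These were Cntnap2, which clusters Kcna channels along axons, with means of 51.7 ± 39.7 and 18.4 ± 1.65 CPM (a log2 fold change of -1.49, SE 0.60), and Dpp10, an auxiliary subunit of Kcnd channels, at 26.2 ± 11.98 and 12.8 ± 2.47 CPM (-1.03, SE 0.46). All 10 tested calcium- or sodium-activated potassium channel genes were on the lower side, with a median of -1.15 and 1 at an unadjusted p under 0.05, Kcnmb2 (-2.72, SE 1.07). Kcnma1, the BK channel, averaged 41.3 ± 28.7 CPM in sgRosa, where replicate 4 held 81.8 CPM, and 20.2 ± 5.89 CPM in sgNr2f2.

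Inward rectifier genes were on the lower side in 10 of 11 tested, against 56.2% of all tested genes. Their median was -0.74, and 0 had an unadjusted p under 0.05. Those of smallest p were Kcnj16 (-1.19, SE 1.03), of astrocyte and kidney channels, and Kcnj8 (-1.47, SE 1.27), a pericyte marker. Tandem-pore (Kcnk) genes were on the lower side in 7 of 8, led by Kcnk10 (-1.28, SE 0.84) and Kcnk3 (-1.35, SE 0.89), the latter at 37.1 CPM in sgRosa replicate 4 and 2.78 to 8.96 CPM elsewhere. Of the HCN genes, which encode the hyperpolarization-activated cation channels, 2 of 3 tested were on the lower side. An unadjusted p under 0.05 was reached by 1 of these 2. Hcn3 lay on the higher side, with a log2 fold change of 0.31 (SE 0.71). None of these genes passed edgeR's adjusted test (adjusted p from 0.868 to 0.957 for those named).

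These lists also leaned less without sgRosa replicate 4. That library held the highest level of 7 of the 10 calcium- or sodium-activated and 7 of the 8 tandem-pore genes. It also held the highest level of 6 of 15 auxiliary, 4 of 11 inward rectifier and 2 of 3 HCN genes, against 32.7% of all tested genes. Without it 6 of 10 calcium- or sodium-activated genes were on the lower side (median -0.32) and 7 of 11 inward rectifiers (-0.57). So were 2 of 8 tandem-pore genes (0.27) and 1 of 3 HCN genes (0.47). Of all genes tested without that library, 52.5% were on the lower side. Among the auxiliary genes 9 of 15 were on the lower side in both fits, with a median of -0.89 with that library and -0.19 without it. Cntnap2 was then at -0.84 (SE 0.37, edgeR unadjusted p = 0.0482), Dpp10 at -0.97 (SE 0.40, edgeR unadjusted p = 0.0381), Kcnmb2 at -2.21 (SE 1.02) and Kcnma1 at -0.46 (SE 0.35). Kcne4, which encodes an auxiliary subunit of the KCNE family, is named after its values were seen. It was at -2.41 (SE 0.87, edgeR unadjusted p = 0.0215). That made 3 of 15 auxiliary genes lower at an unadjusted p under 0.05, against 4.88% of all genes tested then. Kcnk10 was at -0.30 (SE 0.69), and Kcnk3 changed sign, to 0.15 (SE 0.51). Again 0 of these genes passed after adjustment.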

How the data were processed

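The values that the authors deposited are raw read counts, 1 row a gene symbol, for 7 RNA-seq libraries; the 7 single-library files equal the joint table. The submitters' processing notes name fastp 0.23.2, STAR 2.7.5c, featureCounts 2.0.1 and edgeR 3.42.4 with the build mm10. The annotation, strand setting and handling of multiply mapped reads were not given in the sources used here. No molecular identifiers are named, so counts are not independent molecules.

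All genes were fitted with the quasi-likelihood test of edgeR 4.0.16 (R 4.3.3), with TMM factors, edgeR's low-count filter (14412 genes kept), the group as the only term and Benjamini-Hochberg adjustment over all tested genes. SEs are the log2 fold change over the root of F. Exon lengths and overlaps came from GENCODE M21 (GRCm38). DESeq2 1.42.0 and limma 3.58.1 served as alternatives. The fits were also run on simulated data with known changes. How many of these they recovered is not given here, so the simulation does not show what the fits could detect. Total counts ran from 6266897 to 20928677, and low-count genes carry the largest errors.

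Per-library values are given for the gene of highest mean in each subfamily, the 10 of smallest p, and any gene that averaged 20 counts or more with no overlap between groups. Other genes were named after their values were seen, and some genes are not reported here. The members and lists were chosen with earlier results of these data known.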

Additional observations from a re-analysis of the deposited data

Results flagged for a closer look

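Within sgRosa, a library was held to stand apart by its gap to the nearest other library. The gap had to be a larger part of the group's range than Dixon's 95% critical value for 4 samples. Chance gives this in about 1 of 20 groups of normally distributed values, and whether these CPM are so distributed was not tested. Of 37 values examined (27 tested genes and 10 subfamily sums), 7 met this rule. The values are not independent, since the sums hold the genes. The share of all tested genes that meet this rule is not given, so the count is not a result about the family. sgRosa replicate 4 held the highest level of 32.7% of all tested genes. In sgRosa replicate 4 they were Kcnc1 at 151.5 CPM, Kcnc4 at 47.2 CPM, Kcng2 at 4.22 CPM, and the sums of the Kcng genes (8.86 CPM) and Kcnq genes (101.3 CPM). In sgRosa replicate 1 they were Kcnv1 at 3.47 CPM and the sum of the Kcnv genes, which is the same value. All 7 were high values. sgRosa replicate 4 also had the highest pan-neuron and erythroid sums, whose part in these values was not tested.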

How the results depend on the processing

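No channel gene passed an adjusted p of 0.05 in any fit made, and edgeR and limma-voom called 0 of all genes throughout. DESeq2 called 2 genes higher and 5 lower, and 256 and 116 with sgRosa replicate 4 left out (an alternative chosen after seeing the data, as was the oligodendrocyte covariate). The family's median log2 fold change ran from -0.88 to -0.20 over the fits that left out 1 library. At an unadjusted p under 0.05 edgeR had 314 genes higher and 407 lower, DESeq2 429 and 665, and limma-voom 348 and 306. The cause of the turns in direction that follow was not tested. Leaving out 1 library, Kcnc1 ran from -1.04 to 0.43, Kcna1 from -0.028 to 0.61 and Kcnq3 from -0.36 to 0.061, and the Kcnv ratio from 0.0731 to 1.86. With the pan-neuron covariate Kcnc1 was 0.54, Kcnd2 0.069 and Kcnf1 0.051. With the oligodendrocyte covariate Kcnc1 was 0.45, Kcnd2 0.22, Kcnf1 0.46, Kcnh1 0.15 and Kcna1 -0.23. With sgRosa replicate 4 left out, DESeq2 gave Kcnc1 0.45, and limma-voom Kcnc1 0.47, Kcnf1 0.13 and Kcna1 -0.10. Per pan-neuron level the ratios of summed levels moved to 1.23 for Kcnc, 0.919 for Kcnd, 0.702 for Kcng and 1.13 for Kcnq.

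The labels name no pairing of libraries. Deviations from the group means in libraries that share a number had correlations of -0.20, -0.26 and 0.09 for numbers 1 to 3. With so few libraries behind each mean, these cannot settle whether such libraries were handled together. With the replicate block, which drops sgRosa replicate 4, the median was -0.17, Kcnc1 0.47, Kcnd2 0.014, Kcnf1 0.23 and Kcna1 -0.071, and 0 genes were called. Depth limits the low members: 10 of 40 had too few counts to be tested.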
